A study of Danio rerio with 34 samples.

Results

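The 3′ ends of zebrafish mRNAs were described here by their in vivo RNA structure, measured by icSHAPE in early embryos. In icSHAPE the reagent NAI-N3 modifies flexible nucleotides inside the embryo, reverse transcription stops at the modified positions, and libraries treated with the solvent DMSO give the background. The result is 1 reactivity per nucleotide from 0 to 1, where a low value stands for a nucleotide that is little accessible to the reagent, as in base-paired RNA. The series holds 6 wild-type profiles of AB embryos at 0, 0.4, 1, 2, 4 and 6 hpf (hours post fertilization). It also holds 2 profiles of elavl1a morphants at 4 and 6 hpf, embryos injected at the one-cell stage with a morpholino, an antisense oligonucleotide, against the start codon of elavl1a. The labels give 1 NAI-N3 and 1 DMSO sample for each wild-type stage, and 2 of each for each morphant stage. RNA-seq of control embryos, with 2 replicates each at 2, 4 and 6 hpf, was used for RNA levels. The titles of these samples do not say whether the controls were injected. The study's methods state that replicates were combined, and each profile is 1 file of pooled embryos, so there was 1 value per stage and no spread between replicates.

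The members were the last 200 nt of every curated RefSeq mRNA (identifier starting with NM_) of 1000 nt or more that had a reactivity at over 50% of its nucleotides in that profile. They were compared with the 200 nt at the middle of the same transcripts, stage by stage. Over the 8 profiles 6394 of the 9116 transcripts listed in any profile met this rule, from 2788 in the 6 hpf morphant to 5690 in the 4 hpf wild type, and 1612 met it in all 8. A window needed at least 50 valued nucleotides, which left 6085 transcripts with both windows valued in at least 1 profile, and 1482 in all 8. The median RPKM (reads per kilobase of transcript, scaled to the depth of the library) of these transcripts was between 43.8 and 64.1. The rule may not be blind to abundance, but transcripts outside it are not set beside them here. The end window also holds fewer values than its length, because the last 30 nt of every transcript carried none in all 8 profiles. At most 170 of its 200 nt could therefore be read, and the median was 170 at the end and 200 at the middle in every profile. Neither transcript sequences nor the borders of untranslated regions were used here.

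In most mRNAs the 3′ end lies in the 3′ untranslated region and is followed by the poly(A) tail. This region carries binding sites for proteins and microRNAs that set mRNA stability, translation and localization. Until the zygotic genome is activated the embryo runs on mRNAs deposited by the mother, which are controlled largely through their tails and 3′ untranslated regions, and many of which are then cleared. Elavl1a belongs to the Elavl family of RNA-binding proteins, which bind U-rich and AU-rich elements. Marker transcripts followed the stage labels in control RNA-seq from 2 to 6 hpf, though not all by as much. btg4, a maternal gene of the BTG/Tob family, had 797 and 778 RPKM at 2 hpf in the 2 replicates of control RNA-seq, and 7.85 and 8.28 at 6 hpf. tbxta, the zebrafish Brachyury gene, was unlisted in both replicates at 2 hpf and had 312 and 310 RPKM at 6 hpf. The maternal zar1 fell less, from 33.6 and 33.0 RPKM to 16.9 and 18.1. The embryonic her5 was highest at 4 hpf (96.8 and 94.1 RPKM), with 5.06 and 4.39 at 6 hpf. In the wild-type icSHAPE profiles btg4 had 1141 RPKM at 0 hpf and 6.34 at 6 hpf, while zar1 rose from 9.76 at 0 hpf to 31.1 at 2 hpf. In RNA of whole embryos, fewer cells of a type and less RNA per cell cannot be told apart.

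The ends were more reactive than the middles in 7 of the 8 profiles, and the excess was largest in the fertilized egg. At 0 hpf the mean reactivity over 3198 transcripts was 0.319 at the end and 0.287 at the middle, a difference of 0.0319 with an SD over transcripts of 0.0554. The end was the more reactive window in 72.8% of these transcripts. The difference was 0.0194 at 0.4 hpf, where both windows were at their highest, with 0.355 at the end and 0.335 at the middle. It was 0.00874 at 1 hpf, where the end stood at 0.284. At 2 hpf the end was at its lowest, 0.255, and exceeded the middle by 0.0138.

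By 4 hpf the windows were nearly level, with 0.289 at the end, 0.285 at the middle and a difference of 0.00361. At 6 hpf the order was turned, with 0.283 at the end, 0.288 at the middle, a difference of -0.00455, and the end above the middle in 46.4% of 3278 transcripts. Thus the excess at the end declined over the 6 wild-type stages with 1 exception, the step from 1 to 2 hpf. The morphants lay above the wild type at both stages, a comparison in which knockdown, injection and developmental delay cannot be told apart. At 4 hpf the morphant difference was 0.0119 (0.306 at the end, 0.294 at the middle), and at 6 hpf it was 0.0266 (0.274 and 0.247).

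Every one of these means was small beside the spread among transcripts, whose SD was between 0.0479 and 0.0629. Taking the 8 profiles as the units, the mean difference was 0.0139 ± 0.0119 (SD, n = 8), and an exact two-sided sign-flip permutation test gave p = 0.0234. Over the 6 wild-type profiles alone the mean was 0.0121 ± 0.0127 (SD, n = 6) and the exact permutation p was 0.0938, where the smallest p that 6 profiles allow is 0.0312. The call over 8 profiles was also lost with windows of 100 nt (mean 0.00449, exact permutation p = 0.414), without nucleotides at 0 (0.00549, p = 0.148) and against all nucleotides before the last 200 (0.00897, p = 0.0703). The wild-type profiles are successive stages and the others are morphants, so the profiles are not replicates of a condition. Transcripts are not replicates either.

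**Figure D1:**
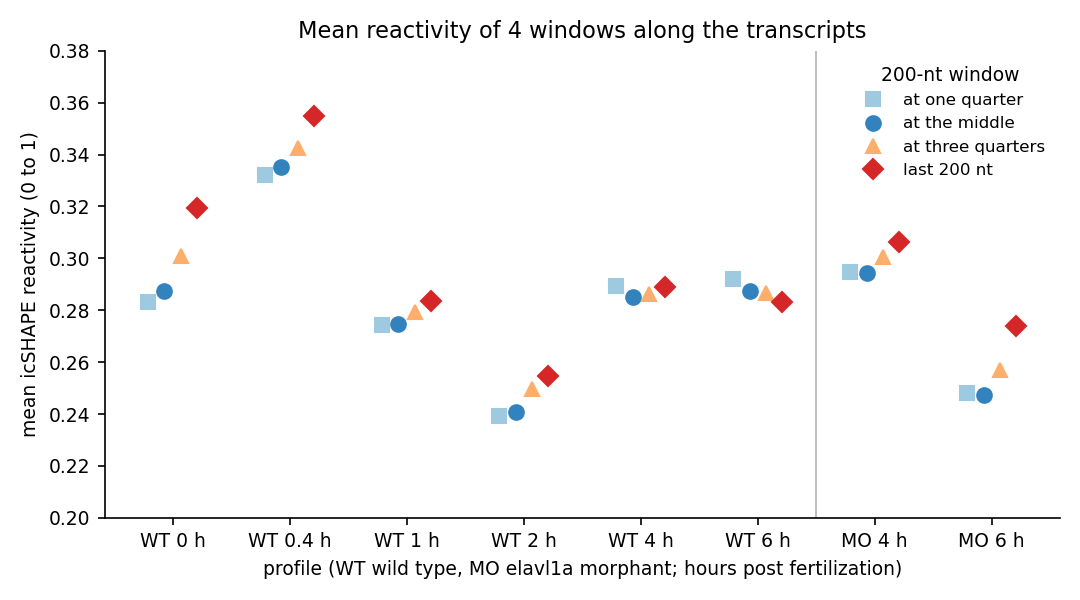
Mean icSHAPE reactivity (vertical axis, 0 to 1, drawn from 0.20) of 4 windows of 200 nt in each of the 8 profiles (horizontal axis). The end window (diamonds) lies above the middle (circles) in 7 profiles and below it only in the wild type at 6 hpf, and the window at 75% of the length (triangles) lies between them in all 8 profiles.

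The rise toward the end was gradual. A window centred at 75% of the transcript length differed from the middle by 0.0133 at 0 hpf, 0.00725 at 0.4 hpf and 0.00887 at 2 hpf. In the wild type at 4 and 6 hpf the values were 0.000914 and -0.00108. A window at 25% of the length, by contrast, differed from the middle by between -0.00493 and 0.00390 over the profiles. In transcripts of 2200 nt or more, whose last 1000 nt do not reach the middle window, the bin of 100 nt that ends 1000 nt from the transcript end exceeded the middle by 0.00947 at 0 hpf. The excess grew to 0.0236 between 400 and 500 nt and to 0.0439 between 100 and 200 nt. The bin between 100 and 200 nt was the highest of the 10 bins in all 8 profiles, with 0.0301 at 0.4 hpf, 0.0201 at 1 hpf and 0.0246 at 2 hpf. At 4 and 6 hpf it still exceeded the middle, by 0.0124 and 0.0117 in the wild type and by 0.0253 and 0.0292 in the morphants. The last 100 nt, of which 70 could be read, were lower again in every profile and reached -0.0159 relative to the middle in the wild type at 6 hpf.

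**Figure D2:**
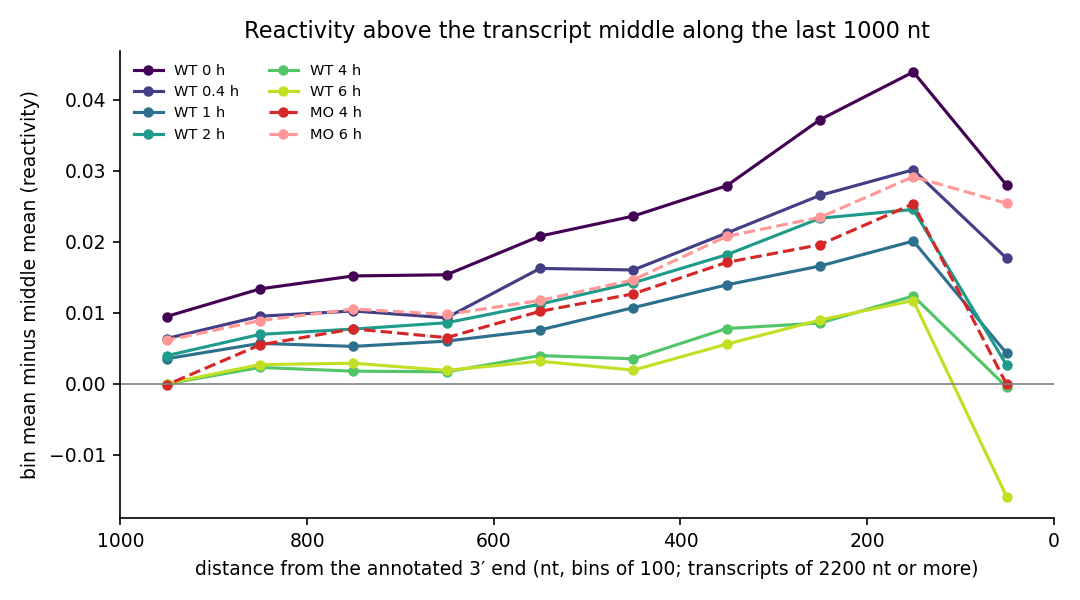
Mean reactivity of bins of 100 nt minus that of the middle window (vertical axis) against the distance from the annotated 3′ end (horizontal axis, nt) in transcripts of 2200 nt or more, 1 line per profile. Each line climbs toward the end, peaks between 100 and 200 nt and drops in the last bin, where the wild type at 6 hpf reaches -0.0159.

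The steepest part of that drop lay in a short stretch next to the unread nucleotides. Between 71 and 250 nt from the end the wild-type profile at 2 hpf ran between 0.256 and 0.269 in bins of 10 nt. Other profiles had a shallower dip further in. The wild type had 0.280 at 1 hpf and 0.284 at 4 hpf at 81 to 90 nt, against 0.296 and 0.301 at 181 to 190 nt. At 6 hpf it had 0.284 at 71 to 80 nt against 0.299 at 181 to 190 nt. The 6 hpf morphant had 0.263 at 71 to 80 nt, below the 0.297 at 51 to 60 nt. The most reactive bins of the profile at 0.4 hpf were those at 51 to 60 and 61 to 70 nt, with 0.391 and 0.392, against 0.357 at 121 to 130 nt. The mean reactivity was between 0.234 and 0.332 at 41 to 50 nt, which was below the bin at 51 to 60 nt in every profile but the 6 hpf morphant (0.297 in both bins). It was lower in all 8 profiles at 31 to 40 nt, with 0.166 to 0.225. At the last readable position, 31 nt from the end, it was between 0.131 and 0.179. The share of transcripts with a value there was 83.7% to 91.3%, against 92.3% to 95.2% at 221 to 230 nt. In the same bins the share of nucleotides at exactly 0 was 4.54% to 16.2% at 31 to 40 nt and 4.07% to 19.8% at 221 to 230 nt.

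The lower reactivity next to the unread stretch was found in most single transcripts. Nucleotides 31 to 40 were less reactive than nucleotides 41 to 140 in 87.7% of transcripts at 0 hpf, 91.8% at 0.4 hpf and 69.8% in the 6 hpf morphant, the highest and lowest shares of all profiles being the last 2. The mean deficit was -0.167 at 0.4 hpf (SD 0.117) and -0.0532 in the 6 hpf morphant (SD 0.141). With the end window moved to the 200 nt before the last 50, the excess over the middle was positive in all 8 profiles. It was then 0.0384, 0.0282, 0.0146, 0.0212, 0.00888 and 0.00535 at the 6 wild-type stages in order, and 0.0198 and 0.0269 in the morphants at 4 and 6 hpf. The end below the middle at 6 hpf in the wild type therefore rested on the last 50 nt, while the decline from 0 to 6 hpf did not.

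**Figure D3:**
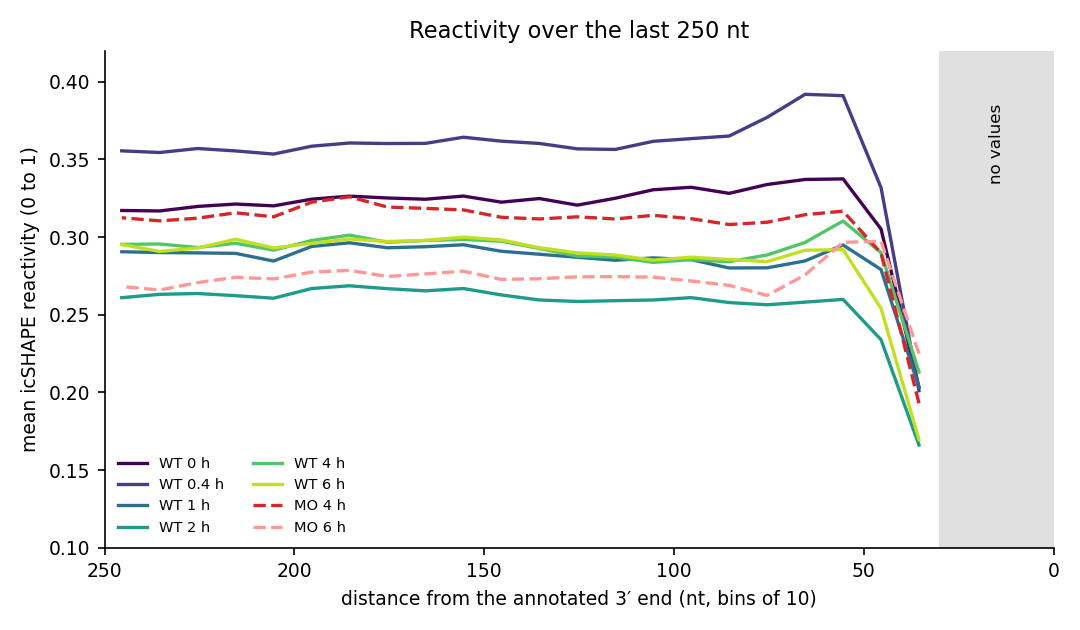
Mean reactivity (vertical axis, 0 to 1, drawn from 0.10) in bins of 10 nt against the distance from the annotated 3′ end (horizontal axis, nt), with the wild type as solid and the morphants as dashed lines and the last 30 nt, which hold no values, in grey. All 8 lines drop from the bin at 41 to 50 nt to the last bin, where they reach 0.166 to 0.225, and all but that of the 6 hpf morphant also drop from the bin at 51 to 60 nt to that at 41 to 50 nt.

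The share of unreactive nucleotides followed the sign of the difference between end and middle, but not its size. At 0 hpf, 4.27% of the valued end nucleotides and 9.0% of the middle ones were at exactly 0. The shares were 8.81% and 13.1% at 1 hpf and 13.7% and 17.9% at 2 hpf, beside smaller differences in reactivity of 0.00874 and 0.0138. At 0.4 hpf they were 3.62% and 5.97%, beside a difference of 0.0194. The end had the lower share in 7 profiles. The exception was the wild type at 6 hpf, with 11.1% at the end and 10.9% at the middle, which was also the one profile with the less reactive end. In the 6 hpf morphant the shares were 18.8% and 22.3%. With nucleotides at 0 left out, the difference was 0.0176 at 0 hpf, 0.0117 at 0.4 hpf and 0.0172 in the 6 hpf morphant, and between -0.00569 and 0.00736 in the other 5 profiles. The share of highly reactive nucleotides, over 0.5, differed less than the share at 0 at 0 hpf, with 21.8% at the end and 19.7% at the middle. In the wild type at 6 hpf it was 19.4% and 19.9%, and there it differed more than the share at 0.

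In single transcripts the end and the middle often differed by more than 0.05. The study used this size for the change of a 10-nt window between stages, together with a paired t test. Here it was applied to 2 windows of 1 profile without such a test. At 0 hpf the end exceeded the middle by more than 0.05 in 1157 transcripts (36.2% of those measured), and fell short by as much in 207 (6.47%). The window at 25% of the length, set against the same middle, did so in 10.9% and 14.7%. At 0.4 hpf the end was above in 29.3% and below in 12.9%, at 1 hpf in 19.6% and 12.2%, and at 2 hpf in 20.6% and 8.35%. At 4 hpf the shares were 18.1% and 14.5%, and at 6 hpf they were 16.4% and 20.4%, against 15.4% and 11.1% for the window at 25% of the length at that stage. In the morphants the end was above in 26.8% and below in 14.6% at 4 hpf, and above in 32.7% and below in 8.41% at 6 hpf. The window at 25% was as far above the middle in 15.4%, 11.4%, 8.51% and 14.0% at 0.4, 1, 2 and 4 hpf. It was as far below in 18.5%, 12.3%, 10.7% and 10.1%. In the morphants it was above in 16.0% and 11.4% and below in 15.8% and 11.8%. A deficit was thus less frequent at the end than in that window, except at 4 and 6 hpf in the wild type. At 1 hpf the shares were nearly level. Wild-type deficits in the window at 75% of the length were 11.6%, 7.52%, 12.8% and 14.3% at 1, 2, 4 and 6 hpf. These shares, and 13.6% in the 4 hpf morphant, were below those of the end. At 0 and 0.4 hpf and in the 6 hpf morphant they were above, with 9.70%, 15.2% and 10.6%. A scarcity of deficits was therefore not particular to the end. At the end, excess and deficit were both common at every stage, and it was their balance that shifted.

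Ends also differed more among themselves than middles did. In transcripts with all 170 nt valued at the end and in a middle window cut to 170 nt, the SD over transcripts was 0.0441 for ends and 0.0374 for middles at 0 hpf, and the end had the larger SD in all 8 profiles. In the 6 hpf morphant the values were 0.0510 and 0.0369. The difference between end and middle was in part a lasting property of a transcript. Across transcripts, which are not independent replicates, its Pearson correlation between 2 profiles was 0.302 to 0.761 over the 28 pairs of profiles, with a median of 0.587. The lowest value was between the 0.4 hpf wild type and the 6 hpf morphant and the highest between 0 and 2 hpf. The points share the window positions and base composition of each transcript.

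Of the 1482 transcripts measured in all 8 profiles, 313 (21.1%) had the more reactive end in every profile and 145 (9.78%) the less reactive end in every profile. In 44 the excess was over 0.05 in all 8 profiles, and in 10 the deficit was. The 44 had a mean end reactivity of 0.359 and a mean middle of 0.243, so that compared with the means of all 1482, 0.298 and 0.287, their ends were high and their middles low. The 10 mirrored them with 0.209 and 0.325. Both sets were picked by the difference itself, so these gaps between end and middle follow from the choice and only describe it. Neither set stood far from the others in length, with medians of 2102 and 2076 nt against 1956, nor in RPKM, with medians of 90.9 and 82.5 against 93.5. The 44 included both zebrafish tob1 genes, tob1a and tob1b.

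The decline of the excess was seen within the same transcripts too. Over the 1482 the difference was 0.0316, 0.0143, 0.00654, 0.0112, -0.000991 and -0.00879 at the wild-type stages in order, and 0.0112 and 0.0271 in the morphants. In 1151 of them (77.7%) it was lower at 6 than at 0 hpf, but in only 11 did it fall at each of the 5 steps. The morphant difference exceeded that of the wild type in 60.2% of them at 4 hpf and in 73.2% at 6 hpf.

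The 5 transcripts with the largest mean excess of the end over the middle had the more reactive end in all 8 profiles. The extremes were named as the 5 highest and 5 lowest means over the 8 profiles among the 1359 transcripts whose windows both held 100 or more values in every profile, so their order is a description. ddit4, which in mammals encodes an inhibitor of mTORC1 signalling, had the highest mean. Its end had a reactivity of 0.509, 0.479, 0.488, 0.509, 0.479 and 0.400 at the 6 wild-type stages and 0.411 and 0.408 in the morphants. Its middle had 0.173, 0.229, 0.210, 0.155, 0.214 and 0.191, and 0.235 and 0.201. The windows did not overlap, and the end was lowest in the 3 profiles of the latest wild-type stage and the morphants. The mean excess was 0.259.

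serinc5, a membrane protein of the serine incorporator family, followed with a mean excess of 0.189. Its end ranged from 0.349 at 6 hpf to 0.570 at 0.4 hpf, and its middle from 0.227 to 0.287. khsrp, which encodes a KH-domain protein that binds AU-rich elements and promotes mRNA decay in mammals, had an end of 0.331 to 0.440, a middle of 0.203 to 0.274 and a mean excess of 0.148. arf2a, a small GTPase of the ADP-ribosylation factor family, averaged 0.146. ppp2cab, a catalytic subunit of protein phosphatase 2A, also averaged 0.146, although its excess was small in the 4 hpf morphant (0.315 at the end and 0.294 at the middle).

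At the other extreme stood sephs3, a selenophosphate synthetase gene by its name. Its end had 0.174, 0.196, 0.112, 0.122, 0.122 and 0.110 at the wild-type stages and 0.113 and 0.121 in the morphants. Its middle had 0.341, 0.344, 0.308, 0.312, 0.313 and 0.331, and 0.376 and 0.278. The end was thus a stretch of very low reactivity at every stage, most of all from 1 hpf on, and the mean deficit was -0.192. rpp38, a protein subunit of RNase P and RNase MRP, shared this course, with an end of 0.271 and 0.287 at 0 and 0.4 hpf and of 0.124 to 0.183 in the other 6 profiles. Its middle lay between 0.25 and 0.443.

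hnrnpa0l, an abundant hnRNP transcript (4570 and 4595 RPKM in control RNA-seq at 6 hpf), averaged -0.131. zgc:55558 averaged -0.116 and zgc:165539 averaged -0.109. All 5 had the less reactive end in all 8 profiles.

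**Figure D4:**
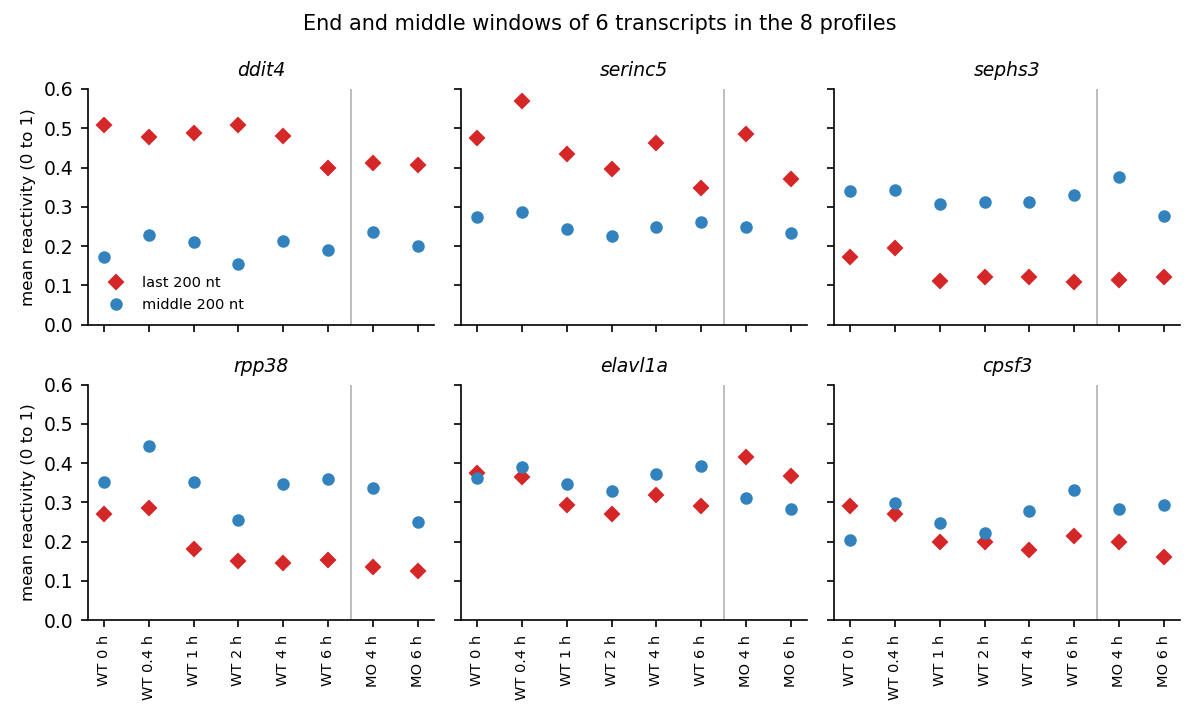
Mean reactivity (vertical axis, 0 to 1) of the last 200 nt (diamonds) and the middle 200 nt (circles) of 6 transcripts in the 8 profiles (horizontal axis). ddit4 and serinc5 keep the end above and sephs3 and rpp38 keep it below the middle throughout, while the windows of elavl1a change places between the wild type from 0.4 hpf on and the morphants, and those of cpsf3 between 0 and 0.4 hpf.

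Between stages the ends moved with the middles in direction but not in size. From 0 to 0.4 hpf the end rose by 0.0354 (SD over 3091 transcripts 0.0444) and the middle by 0.0494 (SD 0.0354). From 0.4 to 1 hpf the end fell by 0.0715 and the middle by 0.0600. The end therefore rose less in the first interval and fell more in the next. From 1 to 2 hpf the end fell by 0.0275 and the middle by 0.0313, and from 2 to 4 hpf they rose by 0.0366 and 0.0474. From 4 to 6 hpf the end fell by 0.00667, while the middle changed by -0.000129. These are differences between single pooled profiles and were not tested.

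The share of ends that rose by more than 0.05 was 35.9% from 0 to 0.4 hpf and 33.6% from 2 to 4 hpf, against 49.2% and 47.0% of middles. The share that fell by as much was 71.2% from 0.4 to 1 hpf and 21.0% from 1 to 2 hpf, against 61.9% and 22.3% of middles. In the last interval 4.23% of ends rose and 7.75% fell, against 3.82% and 3.60% of middles. Within a transcript the change of the end told little of the change of the middle, as their correlation across transcripts was between 0.0456 and 0.191 in the 5 wild-type intervals.

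**Figure D5:**
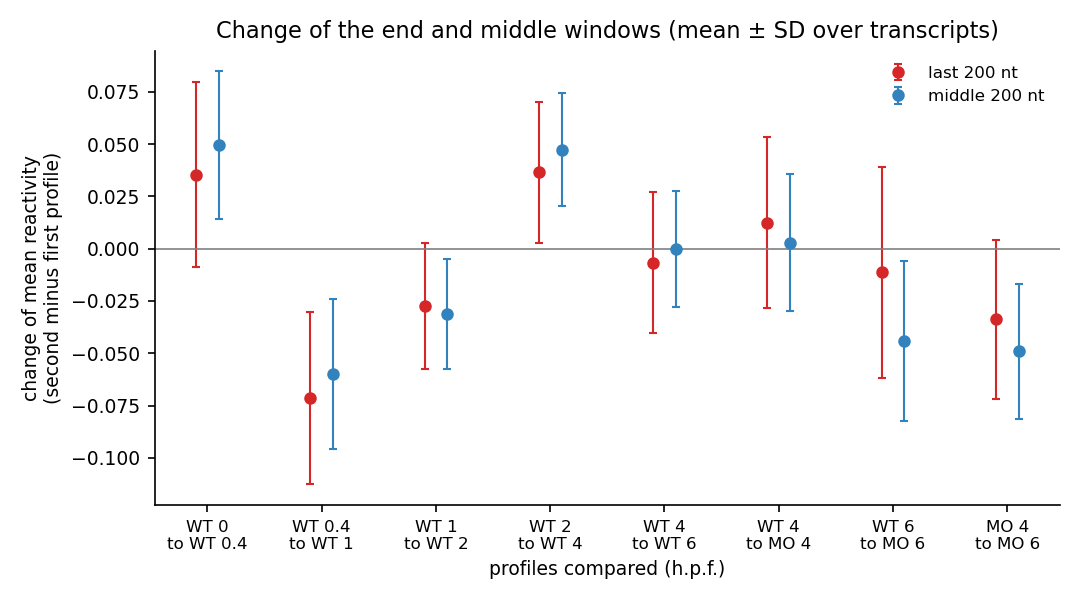
Change of the mean reactivity (vertical axis) of the last 200 nt and the middle 200 nt between 2 profiles (horizontal axis), as mean and SD over the transcripts measured in both. The end rose less than the middle from 0 to 0.4 and from 2 to 4 hpf, and it fell far less than the middle between the wild type and the morphant at 6 hpf.

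The end and the middle parted most in the comparison of wild type and elavl1a morphant at 6 hpf. Over 2633 transcripts the end was 0.285 in the wild type and 0.274 in the morphant, a change of -0.0112, while the middle was 0.291 and 0.247, a change of -0.0440. More than 0.05 lower in the morphant were 20.9% of ends and 43.1% of middles, and more than 0.05 higher were 10.6% of ends and 1.25% of middles. The window at 25% of the length changed by -0.0489 and the window at 75% by -0.0328, so the change was graded along the transcript. At 4 hpf the end was higher in the morphant by 0.0124 and the middle by 0.00297, with 16.8% of ends and 7.12% of middles more than 0.05 higher. Each side of these comparisons is 1 pooled profile. The sample titles name no injection for the wild type, and the study reports delayed development of the morphants. Knockdown, injection, delay and any difference between the library sets can therefore not be told apart. The difference of end and middle correlated at 0.399 between wild type and morphant at 6 hpf and at 0.624 at 4 hpf. From 4 to 6 hpf the correlation was 0.755 within the wild type and 0.712 within the morphants. The share of nucleotides at 0 also differed. It was 18.8% at the end and 22.3% at the middle in the 6 hpf morphant, against 11.1% and 10.9% in the wild type. With nucleotides at 0 left out, the end was 0.318 in the wild type and 0.337 in the morphant, and the middle 0.323 and 0.320. These means are over all 3250 and 2599 transcripts measured so in each profile, not over the shared 2633. The part of the zeros in the result was not tested.

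The targeted gene itself stood out by the change of its end relative to its middle. The end of elavl1a had 0.375, 0.364, 0.292, 0.270, 0.318 and 0.290 at the wild-type stages, and 0.415 and 0.368 in the morphants at 4 and 6 hpf. Its middle had 0.362, 0.391, 0.346, 0.329, 0.372 and 0.393, and 0.312 and 0.282 in the morphants. In the wild type the end was thus below the middle from 0.4 hpf on, and in both morphants it was above it. Between wild type and morphant the difference of end and middle changed by 0.157 at 4 hpf, a change that 10 of 3102 transcripts exceeded, and by 0.189 at 6 hpf, which 25 of 2633 exceeded. Both windows took part, as the end changed by 0.0975 and the middle by -0.0597 at 4 hpf. At 6 hpf the end changed by 0.0779 and the middle by -0.111. The transcript's RPKM in the same profiles was 237 and 439 in the wild type and 247 and 416 in the morphants. A morpholino at the start codon blocks translation, so the level of the mRNA does not check the knockdown.

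Another 4 transcripts were named whatever their values. kpna4, an importin alpha, had a mean excess of 0.0257, with the end at 0.370 and the middle at 0.280 at 0 hpf and the end below the middle at 4 and 6 hpf in the wild type. mylipa, a ubiquitin ligase gene, met the rule in 6 profiles with a mean excess of 0.0441, and dgcr8, a subunit of the microRNA-processing Microprocessor, in 6 with 0.0622. atp2b1a, a plasma membrane calcium pump, was measured in 5 profiles, with 0.340 at the end and 0.236 at the middle at 6 hpf.

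Relative to the middle of the same transcript, single ends changed by far more than the mean at the onset and after zygotic transcription. From 2 to 4 hpf the end rose beyond the middle most in azi2 (by 0.162), grpel1 (0.156) and dctd (0.149). In dctd the end changed by 0.0900 and the middle by -0.0589. In grpel1, a mitochondrial co-chaperone, the end went from 0.286 to 0.454 while the middle went from 0.198 to 0.210. It then had the largest fall of all relative to the middle from 4 to 6 hpf, to 0.374 at the end with 0.264 at the middle. The largest falls relative to the middle from 2 to 4 hpf were those of ctdnep1b (-0.162), spice1 (-0.147) and hibadha (-0.141). In ctdnep1b the end changed by -0.0938 and the middle by 0.0685, and in spice1 by -0.0761 and 0.0713. In hibadha the fall came from the middle, which went from 0.152 to 0.297 beside an end of 0.313 and 0.316.

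From 4 to 6 hpf the largest rise relative to the middle was that of stt3b, a catalytic subunit of the oligosaccharyltransferase. Its end was 0.241 at 4 hpf and 0.389 at 6 hpf, and its middle 0.301 and 0.322. rsrp1 and nol10 followed with 0.119 and 0.116. Their ends changed by 0.0792 and 0.0808 and their middles by -0.0400 and -0.0350. Besides grpel1 the largest falls relative to the middle were those of gtf2f2a, a subunit of the general transcription factor TFIIF (-0.132), and wbp11 (-0.130). These transcripts were ranked by the values given, so no test applies to them.

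Gene groups were described by the mean difference over the profiles in which a gene's transcript was measured, with 1 transcript per gene. Genes were held by different sets of profiles, whose own means differed, so the values of single genes are not strictly comparable. Over all 5890 genes the median was 0.0123, 60.8% were above 0, 19.8% were above 0.05 and 8.25% were below -0.05. Among genes of glycolysis and core metabolism 18 of 20 had the more reactive end and 6 were above 0.05, with a median of 0.0318. They included pkma, a pyruvate kinase (0.102), and mdh2, a malate dehydrogenase (0.0844). gapdh and ldha were the exceptions, with -0.00742 and -0.0372, the latter from 1 profile.

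Transcription factors of genome activation and the blastula had a median of 0.0198, with 13 of 17 above 0 and 4 above 0.05. The architectural factor ctcf was the highest (0.136), and its end lay between 0.327 and 0.478 in the 6 profiles that held it. Of the activators of the first zygotic genes, nanog was at 0.00206, pou5f3 at 4.93e-05 and sox19b at 0.0414. The nodal pathway factor foxh1 was the lowest of the list with -0.0392. Genes of blastula signalling had a median of 0.0265, with 12 of 18 above 0 and 6 above 0.05. bmp2b, a BMP ligand, and chrd, which binds and blocks BMP, were its extremes with 0.135 (in 4 profiles) and -0.0836 (in 2).

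Factors of deadenylation and decay had a median of 0.0122, with 24 of 33 above 0 and 5 above 0.05. The anti-proliferative genes tob1a and tob1b, whose mammalian relatives recruit the CCR4-NOT deadenylase, were the highest with 0.114 and 0.115. btg4 of the same wider family had 0.0752. The lowest was cnot11, a subunit of CCR4-NOT, with -0.0529 (in 2 profiles). Germ plasm mRNAs had a median of 0.0177, with 6 of 9 above 0, led by buc, the organizer of the Balbiani body (0.0781), and with gra the lowest (-0.0377). Importins had a median of 0.0257 with 6 of 11 above 0 and none above 0.05, and ran from kpna5 (-0.0503, in 1 profile) to tnpo3 (0.0430). Elavl and other U-rich binding proteins had a median of 0.00458, with 9 of 17 above 0. igf2bp1 was the highest (0.147, in 3 profiles) and hnrnpc the lowest (-0.0428).

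In 4 groups the median lay below 0. Proteasome subunits had -0.00819, with 6 of 18 above 0, and spanned psmd11b (-0.103) to psmd3 (0.0916). Translation initiation and elongation factors had -0.0125, with 11 of 28 above 0 and 5 below -0.05. The GTPase activator eif5 was the lowest (-0.0906), and its middle, 0.264 to 0.411, exceeded its end in all 8 profiles. eif4g2a, a scaffold related to eIF4G, was the highest with 0.113. Cyclins and cell cycle kinases had -0.0135, with 11 of 25 above 0, from plk1 (-0.0647) to cdc20, the activator of the anaphase-promoting complex (0.0819). A list of polyadenylation and CPEB factors had -0.00584, with 8 of 17 above 0. Besides cytoplasmic factors it held nuclear factors of 3′ end processing, such as cstf2 and nudt21. The cleavage factors cpsf3 and cpsf4 were at its lower end (-0.0553 and -0.0527) and cpeb4b, a relative of the CPE-binding protein, at the upper (0.0549). These counts are given beside those of all genes and were not tested.

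Transcripts were also set apart by their course in control RNA-seq from 2 to 6 hpf, as lower or higher by more than 2-fold in every pairing of the replicates on log2(RPKM + 1), with a mean of at least 1 RPKM. This held for 4323 (43.4%) and 1788 (18.0%) of 9958 transcripts. Of them, 2823 and 836 were among the transcripts whose ends are described here. At 2 hpf the ends of the transcripts that later declined exceeded their middles by 0.0161 (SD 0.0472, n = 2315). In those that later increased the excess was 0.00185 (SD 0.0487, n = 222). The declining class had the larger excess in all 8 profiles, by 0.00189 to 0.0143, always far less than the SD among transcripts. At 6 hpf both were below 0 in the wild type, with -0.00429 and -0.00618.

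In the same profile the ends of the 2 classes were at 0.282 and 0.283. Thus neither the decline of the excess over the wild-type stages nor its sign at 6 hpf belonged to 1 class. From 4 to 6 hpf the end changed relative to the middle by -0.00660 in the declining, -0.00650 in the class within 2-fold and -0.00631 in the increasing class. The end itself fell by 0.0154 in the declining class and rose by 0.00765 in the increasing one, and the middle moved likewise by -0.00883 and 0.0140.

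Length and abundance were related to the end in different ways. With transcripts sorted by length into 5 groups of equal size, the longest group (median 3544 to 3807 nt by profile) had a larger excess than the shortest (1224 to 1251 nt) in all 8 profiles, by 0.00322 to 0.0148. At 6 hpf in the wild type the shortest group had -0.0116 and the longest 0.00316. Sorted by RPKM, the highest group had a larger excess than the lowest in 1 of 8 profiles only, with gaps from -0.0144 to 0.00588. At the borders of the rule, transcripts up to 100 nt too short had differences between -0.0143 and 0.0264 over the profiles and those within the first 100 nt above the limit between -0.00747 and 0.0250. Transcripts with 45% to 50% of nucleotides valued had 0.00667 to 0.0332, and those with 50% to 55% had 0.00560 to 0.0324.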

How the data were processed

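The authors probed embryos with NAI-N3 or DMSO, selected poly(A) RNA, removed adapters and duplicates, and mapped reads with Bowtie2 to RefSeq transcripts of the Z10 assembly. Stops of reverse transcription were combined over replicates and scaled in sliding windows of 200 nt to the mean of a band of high values just under the top ones, which can even out levels between stretches of a transcript. The deposited reactivities are fractions from 0 to 1 with missing values marked, beside a deposited RPKM per transcript. The number of reads behind a nucleotide is unknown, and so no counting interval can be given. The 6 control RNA-seq tables hold RPKM and read counts by the authors, with 65050992 to 104388477 uniquely mapped reads per library. Replicates differed by more than counting noise (chi-square of 4.04 to 4.33 per degree of freedom) and were kept apart. The labels call them biological replicates, of embryos whose pooling is not described further. Transcripts unlisted in a table were set to 0 RPKM. The morphant RNA-seq and iCLIP files were not used here.

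Missing nucleotides were left out of a window's mean, and values at 0 were kept. The sign-flip test enumerated all sign patterns of the profile means. Symbols from the GRCz12tu RefSeq annotation matched 6289 of 6394 transcripts. Genes were named as the extremes of the 8-profile mean, of the 2 later wild-type intervals and of 11 gene lists, and as the study's examples, and 1 gene that this rule named is not reported here. The members and lists were chosen with earlier results of these data known. Window means were tested on simulated data. Python 3.11.15 with numpy 2.4.6 and pandas 2.3.3 was used. Alternatives covered the window, its required values, the summary, the comparison and the transcripts included.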

Additional observations from a re-analysis of the deposited data

Results flagged for a closer look

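In the wild type at 6 hpf the end lay below the middle by a mean of -0.00455, where the 5 earlier wild-type profiles were above 0. In the morphant of the same stage the difference was 0.0266, of the opposite sign. From 4 to 6 hpf the end changed relative to the middle by 0.0153 in the morphants, over 1988 transcripts, and by -0.00654 in the wild type, over 2697. These opposite directions were not tested, since each rests on 1 pooled profile per stage and condition. Knockdown, injection and developmental delay cannot be told apart in them.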

How the results depend on the processing

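Transcript sequences were not used here, so the alternative that gives A, C, G and U equal weight was not run. No paired analysis was possible because the replicates of each stage were pooled before the profiles were made. A difference between settings was set against the SD of the mean difference over the 8 profiles (0.0119), or over the 8 changes (0.0163). Of 203 alternative values, 161 kept their direction and stayed within that range or within 1.5 times a count. At 1, 4 and 6 hpf in the wild type that SD exceeded the size of the difference itself (0.00874, 0.00361 and -0.00455). Staying within it therefore says little there. The 2 hpf difference also counted as kept with windows of 100 nt, at 0.00214 against 0.0138 with windows of 200 nt. With windows of 100 nt the difference turned to -0.00119 at 1 hpf, -0.00355 at 4 hpf and -0.00110 in the 4 hpf morphant, and it was -0.0210 at 6 hpf. Without nucleotides at 0 it was 0.0176 at 0, -0.00569 at 1, 0.00189 at 2 and -0.00102 at 4 hpf. At 4 hpf it was -0.00149 against all nucleotides before the last 200, and -0.000991 in transcripts measured in all 8 profiles. The 200 nt before the last 50 gave 0.00535 at 6 hpf. A middle of 170 nt, chosen after seeing the data, gave -0.00493 to 0.0320.

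The mean over profiles no longer passed the exact sign-flip permutation test in 4 settings. By exact permutation it was 0.0121 over the 6 wild-type profiles (p = 0.0938), 0.00449 with windows of 100 nt (p = 0.414), 0.00549 without nucleotides at 0 (p = 0.148) and 0.00897 against all nucleotides before the last 200 (p = 0.0703). Leaving out each profile in turn gave 0.0114 to 0.0166 (exact permutation p = 0.0156 to 0.0469). The profiles share transcripts and are not replicates of a condition, so these p-values do not measure replication. Beyond a difference of 0.1 lay 361 of 3198, 419 of 3519 and 191 of 3577 transcripts at 0, 0.4 and 1 hpf. At 2, 4 and 6 hpf in the wild type they were 213 of 4397, 290 of 5280 and 252 of 3278. In the morphants at 4 and 6 hpf they were 332 of 3117 and 302 of 2663. Ends changed by more than 0.1 in 212 of 3091 transcripts from 0 to 0.4 hpf and in 712 of 3107 from 0.4 to 1 hpf. From 1 to 2 hpf 41 of 3517 did so, from 2 to 4 hpf 137 of 4277 and from 4 to 6 hpf 28 of 2697. Between wild type and morphant it was 72 of 3102 at 4 hpf and 143 of 2633 at 6 hpf. Between the morphants it was 78 of 1988. Centred on the median change, 719, 595, 315 and 563 of these same ends were past 0.05 in the first 4 intervals. Between the morphants it was 335. Counts of middles past these limits are not given here. Relative to the middle, the end changed by -0.0140, -0.0115, 0.00377 and -0.0107 in the first 4 intervals, by 0.0328 between wild type and morphant at 6 hpf and by 0.0153 between the morphants. The cause was not tested.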
